A study of Mus musculus with 12 samples.

Results

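The mitochondrial ribosomal protein genes code for the protein subunits of the ribosome inside mitochondria. They were taken as the genes whose only symbol on a probe set begins with Mrpl (large subunit) or Mrps (small subunit) followed by a number, each gene represented by its brightest probe set. The rule found 74 genes of 12393 measured, 47 with an Mrpl and 27 with an Mrps symbol, on 127 probe sets. All 74 passed the filter on low signals that left 8101 genes for testing. A further 3 probe sets carried a mitochondrial ribosomal protein symbol together with another gene's and were left unnamed.

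The mitochondrial ribosome, or mitoribosome, translates the messenger RNAs made from mitochondrial DNA, which code for core subunits of the respiratory chain and of ATP synthase. Its RNA is made inside the organelle, while its proteins come from nuclear genes and are imported, so 2 genomes have to be matched for the particle to form. Compared with the bacterial ribosome it has less RNA and more protein: some subunits have bacterial counterparts and others occur only in mitochondria. The heart depends on oxidative metabolism, and inherited defects of several of these proteins in humans, MRPL3, MRPL44 and MRPS22 among them, cause disease of heart muscle.

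The series holds heart RNA of 12 mice of the inbred strain C57Bl/6, with no other genetic change named, each hybridised to its own single-colour Affymetrix array, 3 per group. Wake-MI mice had the left anterior descending coronary artery tied off at ZT13 to ZT15 (zeitgeber time, the hours since lights on), in their active period, and Wake-SH mice had sham surgery in the same hours. Sleep-MI and Sleep-SH mice had the same 2 operations at ZT1 to ZT3, in their rest period. Hearts were taken 8 hours later, given as ZT23 for wake and ZT11 for sleep surgery. Those collection hours are 8 hours only from the end of each surgery window. The hour of surgery and the hour of collection go together and cannot be told apart. The labels used here name neither the age nor the sex of the mice. The labels call the MI tissue infarcted myocardium and do not say which part of the sham hearts was used. Since tissue was measured in bulk, fewer cells of a type and less RNA per cell cannot be told apart.

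The arrays had been scaled to a common level, with a trimmed mean signal of 150 on each and medians of 32.7 to 34.7. Correlations between arrays of 1 group were 0.974 to 0.988 over 12 pairs, and between groups 0.949 to 0.989 over 54 pairs. Markers of heart muscle were high on every array, their 9 signals summing to 71513 to 87951 in Wake-MI, 67999 to 76346 in Wake-SH, 77456 to 87150 in Sleep-MI and 62231 to 85276 in Sleep-SH hearts, and 0 of the 9 passed the test of MI against sham in limma, or had an unadjusted p below 0.05. The 4 skeletal muscle markers summed to 4.24 to 26.6 over all arrays. Mean signals of the mitochondrial ribosomal protein genes over the 12 arrays lay between 112 and 3850, with a median of 549. Their brightest probe sets included 23 ending in _a_at, 5 in _s_at and 2 in _x_at, endings that mark probes shared by several transcripts or prone to cross-hybridise.

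Promoters of 6 members are shown here because the results below turn on them or because they hold a motif of a factor known to control mitochondrial genes. They are Mrpl49 and Mrpl34, with the smallest adjusted p of MI against sham, and Mrpl52. By its brightest probe set, Mrpl52 was the only member to pass the test as higher in any comparison. The others are Mrpl32, Mrps22 and Mrps11, lower in MI, as examples with a motif. Each runs from 250 bases before to 50 bases after the transcription start in RefSeq (GRCm38.p6), 5′ to 3′ on the strand of the gene. The windows are chr19:6057706-6058005 (minus strand) for Mrpl49, chr8:71464676-71464975 (plus) for Mrpl34, chr13:14612988-14613287 (minus) for Mrpl32, chr9:98601630-98601929 (minus) for Mrps22, chr7:78782881-78783180 (plus) for Mrps11 and chr14:54426659-54426958 (plus) for Mrpl52. Capitals mark the NRF1 core in Mrpl32, the GABPA core in Mrps22 and Mrpl52 and the YY1 core in Mrps11, on either strand.
Mrpl49: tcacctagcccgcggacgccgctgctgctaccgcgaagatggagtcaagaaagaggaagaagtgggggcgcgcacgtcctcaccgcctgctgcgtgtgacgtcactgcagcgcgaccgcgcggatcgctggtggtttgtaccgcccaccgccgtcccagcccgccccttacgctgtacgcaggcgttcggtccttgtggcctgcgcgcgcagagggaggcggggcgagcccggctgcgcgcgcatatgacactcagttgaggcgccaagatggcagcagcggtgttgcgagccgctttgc
Mrpl34: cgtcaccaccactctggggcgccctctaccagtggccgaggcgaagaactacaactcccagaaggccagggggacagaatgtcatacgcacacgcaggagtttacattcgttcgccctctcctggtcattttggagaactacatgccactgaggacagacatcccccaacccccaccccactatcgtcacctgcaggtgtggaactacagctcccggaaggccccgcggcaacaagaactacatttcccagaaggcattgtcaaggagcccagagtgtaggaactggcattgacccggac
Mrpl32: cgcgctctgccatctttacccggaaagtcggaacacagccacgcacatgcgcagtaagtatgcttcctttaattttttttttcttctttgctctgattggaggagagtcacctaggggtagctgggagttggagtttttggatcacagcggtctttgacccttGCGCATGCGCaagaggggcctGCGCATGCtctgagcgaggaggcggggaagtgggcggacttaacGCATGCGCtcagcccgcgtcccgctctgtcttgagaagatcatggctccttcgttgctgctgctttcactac
Mrps22: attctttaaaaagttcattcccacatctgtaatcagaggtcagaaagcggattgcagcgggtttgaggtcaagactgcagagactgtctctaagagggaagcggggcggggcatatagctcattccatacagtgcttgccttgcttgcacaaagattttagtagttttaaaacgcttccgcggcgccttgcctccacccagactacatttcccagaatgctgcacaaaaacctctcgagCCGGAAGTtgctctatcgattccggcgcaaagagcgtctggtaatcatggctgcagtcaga
Mrps11: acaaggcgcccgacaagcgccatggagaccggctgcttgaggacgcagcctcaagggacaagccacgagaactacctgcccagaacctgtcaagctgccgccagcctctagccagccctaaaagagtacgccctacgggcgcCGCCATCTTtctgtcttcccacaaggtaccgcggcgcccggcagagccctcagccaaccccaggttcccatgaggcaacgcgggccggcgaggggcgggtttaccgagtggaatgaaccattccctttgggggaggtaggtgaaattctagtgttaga
Mrpl52: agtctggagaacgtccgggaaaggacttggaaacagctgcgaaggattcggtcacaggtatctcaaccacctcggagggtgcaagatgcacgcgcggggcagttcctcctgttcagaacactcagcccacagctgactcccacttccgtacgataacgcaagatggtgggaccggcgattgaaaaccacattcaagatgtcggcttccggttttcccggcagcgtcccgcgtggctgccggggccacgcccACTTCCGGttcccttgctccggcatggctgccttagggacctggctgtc
The letters searched were GCATGCGC for the NRF1 core, CCGGAAGT for the GABPA core, AAGATGGCG for the YY1 core and CACGTG for the E-box, each on both strands. None of the 4 occurs in the windows of Mrpl49 and Mrpl34. The Mrpl32 window holds the NRF1 letters 4 times, beginning at -87, -85, -66 and -22 from the start, and the matches at -87 and -85 overlap. The GABPA letters begin at -11 in Mrps22 and at 2 in Mrpl52, and the YY1 letters at -108 in Mrps11.

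A promoter was found for 65 of the 74 members, and 27 of the 65 held at least 1 of the 4 motifs. The NRF1 core was in 8 of them (12.3%), against 6.38% of the 6587 tested genes with a promoter and 3.05% of 27025 genes. The GABPA core was in 11 members (16.9%), against 9.59% and 4.31%, and the YY1 core in 7 (10.8%), against 3.81% and 1.64%. The E-box, the site of the clock factors among others, was in 5 members (7.69%), against 12.3% and 8.09%. Of the members that fell in MI over both times, 27 had a promoter, and 3, 5, 2 and 2 of these held the NRF1, GABPA, YY1 and E-box letters. A match is a description of the letters in the window and was not tested.

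The first question is how the hearts 8 hours after MI differed from sham hearts. Of the 74 genes, 28 fell and 0 rose over both times of surgery together (6 MI against 6 SH hearts, adjusted p below 0.05 in limma), or 37.8% of the members. Among all 8101 genes 22.1% passed the test in either direction and 13.6% passed and were lower. At an unadjusted p below 0.05 there were 38 members lower and 2 higher, where 23.3% of all genes were lower and 13% higher. The fall was shallow: the 28 genes were lower by 12.9% to 35.9% in MI on the log2(signal + 16) scale, which understates falls in raw signal, and no member differed by as much as 2-fold in any comparison. The median log2 difference of the 74 genes, MI minus SH, was -0.19, against -0.06 over all genes, and 68 of the 74 were below 0. The middle of the members was narrow, with quartiles of -0.27 and -0.11.

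Mrpl49, a subunit of the large particle found only in mitochondria, had the largest fall over both times. Its signals were 119, 116 and 117 in Wake-MI hearts, against 213, 171 and 230 in Wake-SH hearts. In the sleep period they were 112, 138 and 109 in Sleep-MI hearts, against 181, 157 and 221 in Sleep-SH hearts. All 6 MI hearts lay below all 6 SH hearts. MI hearts averaged 119 ± 10.4 and SH hearts 195 ± 29.8 (SD, n = 6 each), a log2 difference of -0.64 ± 0.10 (SE, adjusted p = 0.000663). A second, dimmer probe set of Mrpl49 gave -0.35 ± 0.12.

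Mrpl34, whose bacterial counterpart is one of the smallest proteins of the large subunit, was next. It had signals of 365, 362 and 306 in Wake-MI hearts, against 705, 555 and 714 in Wake-SH hearts. Sleep-MI hearts gave 362, 363 and 417, against 508, 384 and 508 in Sleep-SH hearts. The wake groups were far apart, and in sleep the highest MI heart was above the lowest sham heart. Over both times the log2 difference was -0.59 ± 0.10 (SE, adjusted p = 0.000999). Its second probe set, with a mean signal of 15.7, gave 0.04 ± 0.14.

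Mrps23, a mitochondria-specific protein of the small subunit, read 542, 482 and 278 in Wake-MI hearts, against 804, 655 and 773 in Wake-SH hearts. In sleep the signals were 539, 559 and 401 in Sleep-MI hearts, against 501, 535 and 635 in Sleep-SH hearts, and these groups overlapped. The log2 difference over both times was -0.48 ± 0.14 (adjusted p = 0.0278), and its other probe set gave -0.24 ± 0.08. Mrpl21, a large-subunit protein with a bacterial counterpart, measured 348, 312 and 164 in Wake-MI hearts, against 453, 437 and 448 in Wake-SH hearts. It measured 330, 356 and 317 in Sleep-MI hearts, against 361, 378 and 412 in Sleep-SH hearts, so that every MI heart was below every sham heart. Its difference was -0.46 ± 0.14 (adjusted p = 0.0274). For both genes the lowest of the 12 signals was that of Wake-MI replicate 3. A dim second probe set of Mrpl21, with a mean signal of 16.1, gave 0.23 ± 0.14, and with the probe sets averaged Mrpl21 was no longer past the threshold (-0.11, adjusted p = 0.574).

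**Figure D1:**
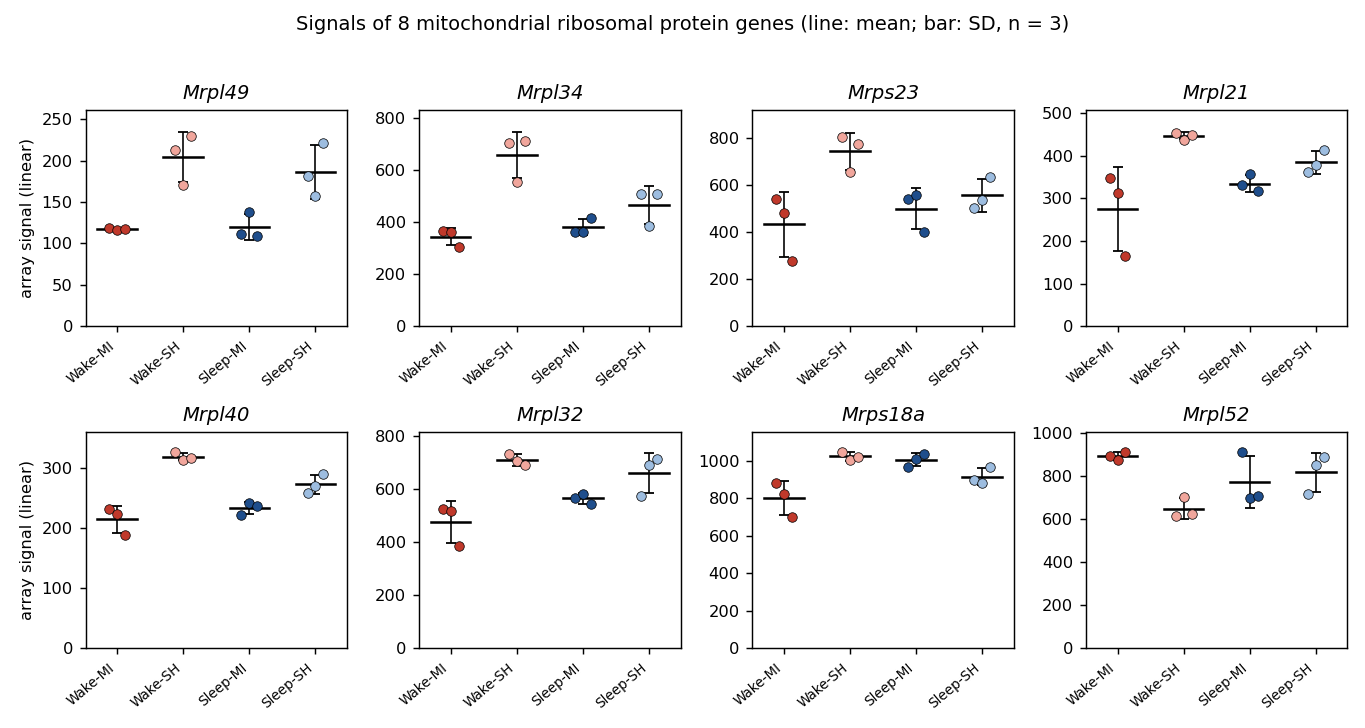
Array signals (linear scale, from 0) of 8 mitochondrial ribosomal protein genes in Wake-MI, Wake-SH, Sleep-MI and Sleep-SH hearts, with 1 point per heart, a line at the mean and a bar of 1 SD (n = 3). Mrpl49 is lower in MI at both times, Mrps18a is lower in Wake-MI but higher in Sleep-MI than in the matching sham hearts, and Mrpl52 is higher in Wake-MI than in Wake-SH hearts.

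By symbol, of the Mrpl genes 19 of 47 fell, and of the Mrps genes 9 of 27, with a median log2 difference of -0.19 in each. Placed by the human structure, 20 of 49 genes of the large particle and 7 of 24 of the small one fell, with medians of -0.19 and -0.18. Among genes with a bacterial counterpart 18 of 44 fell, and among mitochondria-specific genes 9 of 29, again with medians of -0.19. The classes follow nomenclature, and Mrps18a and Mrps18b were counted as mitochondria-specific although they are related to a bacterial protein. The remaining gene, Mrps36, fell as well (-0.27 ± 0.08, adjusted p = 0.0261). Its product is known as a component of the oxoglutarate dehydrogenase complex and is not a subunit in the human mitoribosome structure. Beyond the 4 described above, the largest falls were those of Mrpl36, Mrpl32, Mrpl40, Mrps11 and Mrps22, between -0.45 and -0.35.

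Mrpl32, a large-subunit protein that is cut by the mitochondrial m-AAA protease before it joins the ribosome, read 524, 517 and 386 in Wake-MI hearts, against 733, 705 and 689 in Wake-SH hearts. Sleep-MI hearts gave 568, 582 and 544, against 574, 692 and 715 in Sleep-SH hearts, with 1 Sleep-MI heart above the lowest sham heart. Over both times the log2 difference of Mrpl32 was -0.39 ± 0.09 (adjusted p = 0.00601). Mrpl40, a mitochondria-specific large-subunit protein, gave 232, 223 and 189 in Wake-MI hearts and 222, 242 and 237 in Sleep-MI hearts. Sham hearts gave 326, 314 and 317 for Mrpl40 in the wake group and 258, 270 and 290 in the sleep group. The 6 MI hearts were below the 6 SH hearts, with a difference of -0.38 ± 0.07 (adjusted p = 0.00255).

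Of the 74 genes, 7 had every MI heart below every SH heart: Mrpl21, Mrpl23, Mrpl40, Mrpl49, Mrps11, Mrps21 and Mrps33. Over all genes tested 4.85% had this separation. Mrps11, Mrps21 and Mrps33 belong to the small subunit, the first 2 with bacterial counterparts. Mrps16, also of bacterial descent and the first mitoribosomal protein tied to an inherited disease in humans, was at 717, 757 and 655 in Wake-MI and 746, 743 and 760 in Sleep-MI hearts. It was at 986, 851 and 997 in Wake-SH and 860, 746 and 978 in Sleep-SH hearts, with overlap in sleep, a log2 difference of -0.30 ± 0.08 (adjusted p = 0.0159).

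Several subunits with known special roles did not pass the test over both times. Mrpl12, which forms the stalk that recruits translation factors, read 1535, 1518 and 1406 in Wake-MI hearts, against 1772, 1352 and 1765 in Wake-SH hearts. In sleep it read 1449, 1078 and 1466 in Sleep-MI hearts, against 1416, 1140 and 1699 in Sleep-SH hearts. The groups overlapped at both times (-0.10 ± 0.11, adjusted p = 0.545). Mrpl45, which anchors the ribosome at the inner membrane, read 277, 280 and 185 in Wake-MI hearts, against 321, 232 and 295 in Wake-SH hearts. Sleep-MI hearts gave 253, 222 and 226, against 262, 237 and 290 in Sleep-SH hearts, again with overlap (-0.17 ± 0.11, adjusted p = 0.282). Mrps12, at the decoding centre, read 456, 471 and 416 in Wake-MI hearts, against 538, 496 and 548 in Wake-SH hearts, and here the groups were apart. They overlapped in sleep, with 400, 456 and 452 in Sleep-MI hearts, against 494, 452 and 470 in Sleep-SH hearts (-0.17 ± 0.07 over both times, adjusted p = 0.0858).

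Mrps30, named for the small subunit but placed in the large one in the human structure, did pass. It read 203, 204 and 196 in Wake-MI hearts, against 243, 277 and 241 in Wake-SH hearts, and 178, 186 and 219 in Sleep-MI hearts, against 204, 222 and 227 in Sleep-SH hearts. The wake groups were apart and the sleep groups overlapped (-0.23 ± 0.07 over both times, adjusted p = 0.0376). Also lower was Mrpl58, which frees stalled ribosomes (-0.23 ± 0.07, adjusted p = 0.0303). Mrpl3 and Mrpl44, of the heart muscle disorders named above, differed by -0.09 ± 0.06 and -0.07 ± 0.07 on their brightest probe sets, while Mrps22 fell (-0.35 ± 0.10, adjusted p = 0.0248). Their dimmer probe sets varied. For Mrpl44 these gave -0.33 ± 0.07 (adjusted p = 0.00815 over all probe sets) and -0.11 ± 0.08. For Mrpl3 these gave -0.26 ± 0.09 (adjusted p = 0.0988) and, on the dimmest, 0.29 ± 0.16. In wake hearts the first of these gave -0.40 ± 0.10 for Mrpl44 (adjusted p = 0.0242) and -0.53 ± 0.13 for Mrpl3 (adjusted p = 0.0271).

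The count of 28 moved with single hearts. It was 11 without Wake-SH replicate 1, 12 without Wake-SH replicate 3 and 12 without Sleep-SH replicate 3. It was 15 without Sleep-MI replicate 1, 16 without Sleep-MI replicate 3 and 16 without Wake-MI replicate 3, and lay between 19 and 34 without each of the other 6. The share of all genes that fell also moved. It was 10.1% without Wake-SH replicate 1, against 14.9% of the members, and 9.46% without Wake-SH replicate 3 and 9.34% without Sleep-SH replicate 3, against 16.2% of the members each. It was 9.84% without Sleep-MI replicate 1 (members 20.3%), 11% without Sleep-MI replicate 3 and 13% without Wake-MI replicate 3 (members 21.6% each). In either direction 17.1% of all genes passed without Wake-SH replicate 1, 16.6% without Wake-SH replicate 3 and 16.2% without Sleep-SH replicate 3. The 10 genes that stayed past the threshold without each heart in turn were Mrpl22, Mrpl23, Mrpl32, Mrpl34, Mrpl36, Mrpl40, Mrpl49, Mrps11, Mrps16 and Mrps33. Of the 28, 8 had more than 1 probe set, and of their 9 other probe sets 5 moved in the same direction and 4 did not. Some members that were not called had a dimmer probe set that passed in limma over all probe sets. Besides that of Mrpl44 given above, 1 of Mrpl28 rose over both times (0.58 ± 0.15, adjusted p = 0.0265). Those that fell belonged to Mrpl51 (-0.45 ± 0.09, adjusted p = 0.00544), Mrps24 (-0.35 ± 0.07, adjusted p = 0.00659) and Mrpl11 (-0.35 ± 0.09, adjusted p = 0.0257).

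**Figure D2:**
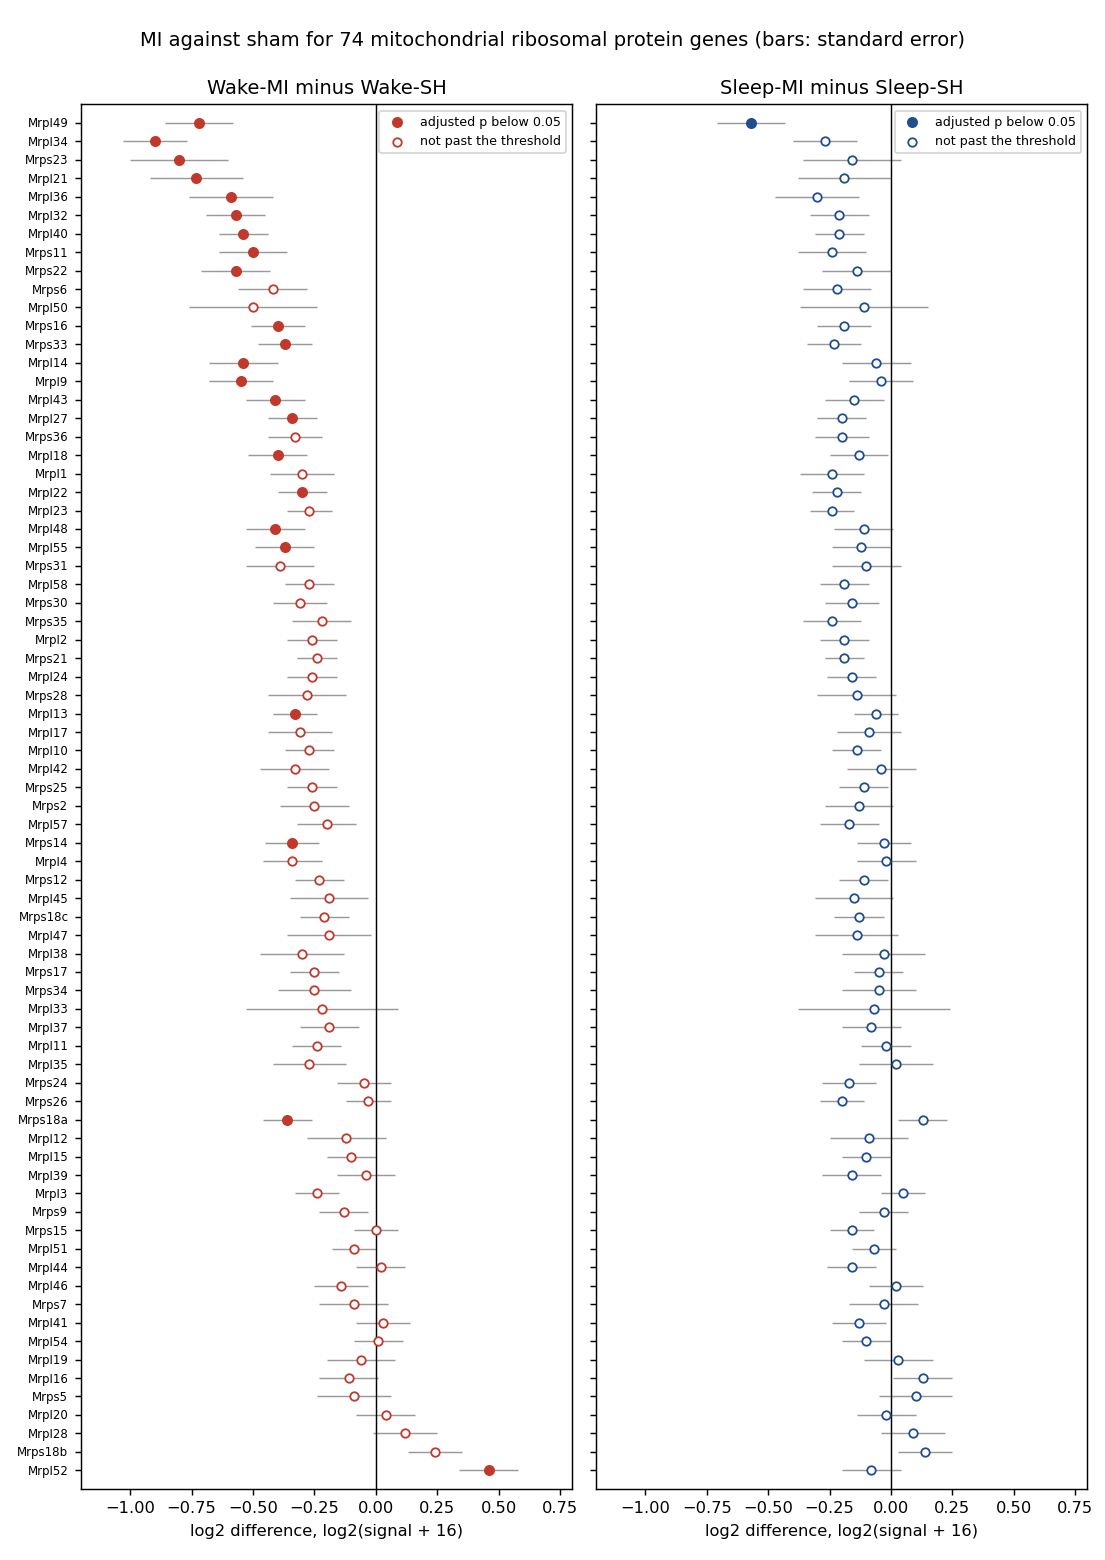
Log2 differences in log2(signal + 16) of the 74 genes, Wake-MI minus Wake-SH on the left and Sleep-MI minus Sleep-SH on the right, ordered by the difference over both times, with bars of 1 SE. Filled points passed the test, 23 in the wake hearts and 1 in the sleep hearts, and most points lie left of 0 in both panels.

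In the wake period alone, 22 of the 74 genes fell in Wake-MI against Wake-SH hearts and 1, Mrpl52, rose. Over all genes 18.5% passed this test, 10.7% lower and 7.79% higher. The called falls were of 19.1% to 46.4% on the log2(signal + 16) scale, the median log2 difference of the members was -0.27, against -0.06 over all genes, and 66 were below 0. Mrpl34 led with -0.90 ± 0.13 (adjusted p = 0.000782), followed by Mrps23 with -0.80 ± 0.20 (adjusted p = 0.0153), Mrpl21 with -0.73 ± 0.19 (adjusted p = 0.0186) and Mrpl49 with -0.72 ± 0.14 (adjusted p = 0.00409). Without Wake-MI replicate 3 all 4 stayed past the threshold in another order, with -0.82 for Mrpl34, -0.72 for Mrpl49, -0.52 for Mrps23 and -0.42 for Mrpl21. With the probe sets averaged, Mrpl34 gave -0.35 and Mrpl21 -0.35 in wake hearts and neither passed (adjusted p = 0.0609 and 0.204). The median of the members was -0.18 without Wake-MI replicate 3. Of the Mrpl genes 15 of 47 fell, and of the Mrps genes 7 of 27. Of the genes that fell over both times, 20 also fell in wake hearts alone. Those comparisons share their wake hearts.

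In 41 genes every Wake-MI heart was below every Wake-SH heart, where 21.5% of all genes had that separation, and in 3 genes every Wake-MI heart was above, where 13.6% of all genes had it. The 3 were Mrpl28, Mrps18b and Mrpl52. Mrpl52, a mitochondria-specific large-subunit protein, read 894, 877 and 912 in Wake-MI hearts, against 617, 704 and 625 in Wake-SH hearts, a log2 difference of 0.46 ± 0.12 (adjusted p = 0.0175). In the sleep hearts it read 914, 700 and 707 in Sleep-MI, against 716, 852 and 888 in Sleep-SH, with groups that overlapped (-0.08 ± 0.12). The other 3 probe sets of Mrpl52 gave 0.05 ± 0.11, 0.00 ± 0.10 and 0.15 ± 0.19 in the wake hearts, and the mean of its probe sets gave 0.17 (adjusted p = 0.281).

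The wake count of 23 fell to 5 without Wake-SH replicate 1, to 6 without Wake-SH replicate 3 and to 10 without Wake-MI replicate 3. The lower calls among them were 6.76%, 8.11% and 12.2% of the members, and over all genes 5.39%, 5.17% and 8.46% fell in the same 3 fits. In either direction 6.76%, 8.11% and 13.5% of the members passed, against 10.7%, 10.4% and 15.3% of all genes. Mrpl9, Mrpl32, Mrpl34, Mrpl40 and Mrpl49 stayed past the threshold without each heart in turn. When only the 6 wake hearts entered the fit, 9 members fell and 1 rose. These were 13.5% of the members, and 13.4% of all genes passed in either direction in that fit. Among the 8101 genes 564 fell and 520 rose.

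In the sleep period 1 gene, Mrpl49, fell in Sleep-MI against Sleep-SH hearts (-0.57 ± 0.14, adjusted p = 0.0456), and 0 rose. Over all genes 2.65% passed this test and 0.975% were lower. Mrpl49 lost the call without any 1 of 9 of the 12 hearts, staying past the threshold without Wake-MI replicate 3, Wake-SH replicate 2 or Sleep-SH replicate 2. At an unadjusted p below 0.05 there were 6 members lower and 0 higher, where 10.3% of all genes were lower and 6.8% higher. The median of the members was -0.13, against -0.05 over all genes, and 65 were below 0. Without Sleep-SH replicate 3 the median of the members was -0.07.

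The next smallest p values in sleep belonged to Mrpl23 and Mrps21, neither past the threshold. Mrpl23, whose bacterial counterpart lies at the exit of the peptide tunnel, read 955, 1013 and 995 in Sleep-MI hearts, against 1153, 1114 and 1239 in Sleep-SH hearts (-0.24 ± 0.09, adjusted p = 0.206). Mrps21 read 1086, 1158 and 1128 in Sleep-MI hearts, against 1277, 1255 and 1326 in Sleep-SH hearts (-0.19 ± 0.08, adjusted p = 0.25). Neither pair of groups overlapped. In 16 genes every Sleep-MI heart was below every Sleep-SH heart, where 15.3% of all genes had that separation, and 14 of the 16 were also separated in this way in the wake hearts, where 7.06% of all genes were separated at both times. In 1 gene, Mrps18a, every Sleep-MI heart was above, where 8.2% of all genes had that order.

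**Figure D3:**
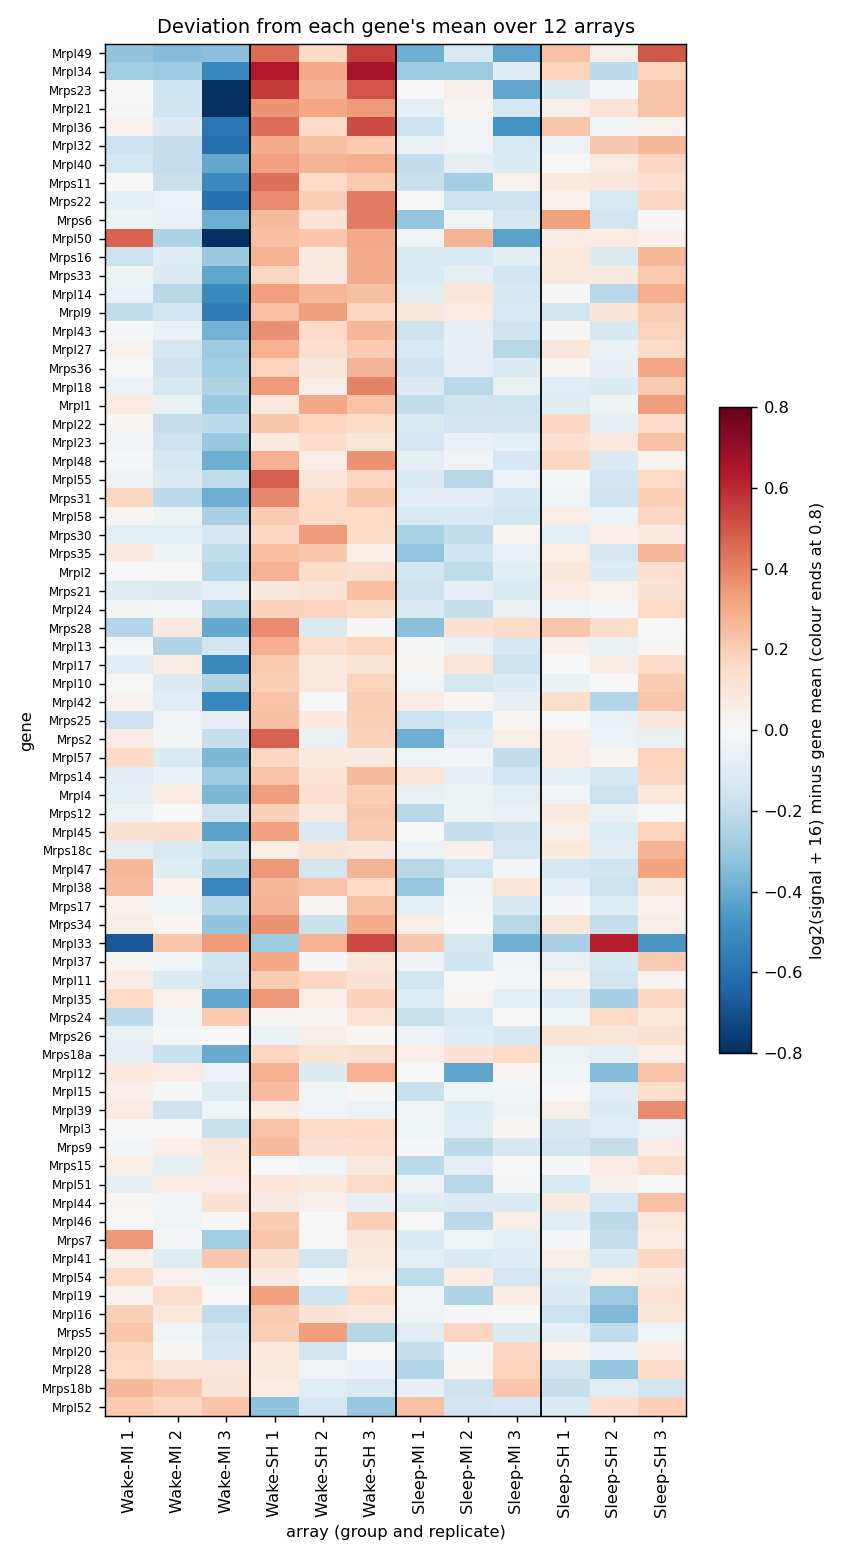
Deviation of log2(signal + 16) from each gene's mean over 12 arrays, for 74 genes (rows, ordered by the difference of MI against sham over both times) and 12 hearts (columns, in the order Wake-MI, Wake-SH, Sleep-MI, Sleep-SH). Blue is below and red above the gene's mean, with colours ending at 0.8; Wake-MI replicate 3 is the bluest column and the Wake-SH group is the reddest.

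Whether the response to MI differed between the times of surgery was tested directly. In the test of the difference of the MI effect, wake minus sleep, 0 members and 0% of all genes passed. The smallest adjusted p of a member was 0.237, and 7 members were lower and 1 higher at an unadjusted p below 0.05, where 4.96% of all genes were lower and 5.55% higher. The median difference was -0.14, against -0.01 over all genes, and 62 members had the more negative value in wake hearts. Without Wake-MI replicate 3 the median was -0.06. The 95% intervals of single members ran between -1.26 and 0.90, and 32 of 74 lay within 0.5 of 0 on either side. The data thus do not show that the MI effect on any one member was alike at the 2 times. Across the 74 genes the wake and sleep differences had a Pearson correlation of 0.47, a description over genes measured on the same arrays. Both differences were below 0 in 59 genes, and 2 genes had both above 0.

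The 3 genes with the smallest p in that test were Mrps18a, Mrpl34 and Mrpl52. Mrps18a is 1 of 3 paralogs related to a single bacterial protein, and its product sits in the large subunit in the human structure. It read 880, 822 and 701 in Wake-MI hearts, against 1050, 1004 and 1021 in Wake-SH hearts, and fell (-0.36 ± 0.10, adjusted p = 0.0215). Its sleep signals were 969, 1009 and 1038 in Sleep-MI hearts, against 901, 882 and 968 in Sleep-SH hearts (0.13 ± 0.10, adjusted p = 0.535). The groups did not overlap at either time and lay in opposite order, and the difference of the effects was -0.49 ± 0.14 (adjusted p = 0.237). Without Wake-MI replicate 3 the wake difference of Mrps18a was -0.26 (adjusted p = 0.0657). For Mrpl34 the difference of effects was -0.62 ± 0.19 and for Mrpl52 0.54 ± 0.17 (adjusted p = 0.286 for each), and with the probe sets averaged -0.15 for Mrpl34 and 0.22 for Mrpl52.

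The paralogs Mrps18b and Mrps18c, both in the small subunit, are described beside it. Mrps18b read 281, 273 and 251 in Wake-MI hearts, against 243, 218 and 213 in Wake-SH hearts, and 222, 206 and 273 in Sleep-MI hearts, against 203, 217 and 209 in Sleep-SH hearts. Its difference over both times was 0.19 ± 0.08 (adjusted p = 0.0996). Mrps18c read 579, 560 and 538 in Wake-MI hearts, against 635, 660 and 652 in Wake-SH hearts, and 592, 630 and 556 in Sleep-MI hearts, against 646, 573 and 740 in Sleep-SH hearts. Its difference was -0.17 ± 0.07 (adjusted p = 0.105), so neither passed the test.

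Wake and sleep hearts were also compared within each operation. Between Wake-MI and Sleep-MI hearts 0 members passed, where 0.0741% of all genes passed. At an unadjusted p below 0.05 there were 0 members higher and 2 lower, where 3.8% of all genes were higher and 2.86% lower. The median difference was 0.00, against 0.01 over all genes, and 63 of the 74 intervals lay within 0.5 of 0. The smallest p values were those of Mrps18a (-0.33 ± 0.10, adjusted p = 0.563), Mrpl9 (-0.31 ± 0.13) and Mrpl32 (-0.25 ± 0.12). Mrpl9, a large-subunit protein with a bacterial counterpart, read 363, 376 and 279 in Wake-MI hearts, against 447, 439 and 384 in Sleep-MI hearts. Every Wake-MI heart lay below every Sleep-MI heart in these 3 genes, an order that 4.41% of all genes had, and above in 1, Mrpl44, an order that 6.47% had. Without Wake-MI replicate 3 the differences were -0.24 for Mrps18a, -0.18 for Mrpl9 and -0.11 for Mrpl32.

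Between Wake-SH and Sleep-SH hearts 0 members passed as well, where 1.52% of all genes passed. At an unadjusted p below 0.05 there were 8 members higher and 1 lower, where 7.04% of all genes were higher and 6.41% lower. The median of the members was 0.16, against 0.02 over all genes, and 63 of the 74 were higher in Wake-SH hearts. Without Wake-SH replicate 1 the median was 0.10. In 17 members every Wake-SH heart was above every Sleep-SH heart, where 11.9% of all genes had that separation, and in 2, Mrps26 and Mrpl52, every Wake-SH heart was below, as in 8.15% of all genes. Mrpl34 had the smallest p, with the sham signals given above (0.48 ± 0.13, adjusted p = 0.107). Mrpl3 read 599, 568 and 572 in Wake-SH hearts, against 466, 479 and 493 in Sleep-SH hearts (0.27 ± 0.09, adjusted p = 0.186), and Mrpl52 was lower in Wake-SH hearts (-0.32 ± 0.12, adjusted p = 0.224). Without Wake-SH replicate 2, 1 member passed. The difference between the sham groups enters the difference of the MI effect above, since the same hearts serve in both.

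Per heart, the mean log2(signal + 16) of the 74 genes was 9.07, 9.0 and 8.81 in Wake-MI, 9.29, 9.15 and 9.25 in Wake-SH, 8.96, 8.98 and 8.97 in Sleep-MI and 9.07, 9.0 and 9.20 in Sleep-SH hearts. Group means were 8.96 ± 0.13, 9.23 ± 0.07, 8.97 ± 0.01 and 9.09 ± 0.10 in the same order (SD, n = 3 each). The 2 MI groups were close to each other, and the sham groups stood higher, Wake-SH most of all. Wake-MI replicate 3 had the lowest signal of the 12 hearts for 45 of the 74 genes, and Wake-SH replicate 1 the highest for 37.

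The ratio of 3′ to 5′ signal of the beta-actin control probe sets rises when RNA is broken or its labelled copies are short. This ratio was higher in every Wake-MI than in every Wake-SH heart, while the sleep groups overlapped. It was 2.33, 2.17 and 3.31 in Wake-MI hearts, against 1.81, 1.78 and 1.76 in Wake-SH hearts. In sleep it was 2.19, 2.09 and 2.92 in Sleep-MI hearts, against 2.49, 2.11 and 1.94 in Sleep-SH hearts. Wake-MI replicate 3, with the highest ratio, had the lowest mean of the 74 genes. Sleep-MI replicate 3, with the next highest ratio, had a mean of 8.97, between the 8.96 and 8.98 of the other Sleep-MI hearts. Among Sleep-SH hearts the one with the highest ratio, replicate 1, had the middle mean (9.07). With the log2 ratio as a covariate, 2 members fell over both times, Mrpl34 (-0.58, adjusted p = 0.0185) and Mrpl49 (-0.57, adjusted p = 0.0208), and 8.30% of all genes passed. The median of the members was then -0.12, with 62 below 0. In wake hearts 1 fell, Mrpl34 (-0.88, adjusted p = 0.0293), with 3.38% of all genes passing and a median of -0.16. Mrps23 gave -0.10 over both times and Mrpl21 -0.14 in that fit. The covariate widened the standard errors of the members by a median factor of 1.28 over both times and 1.36 in wake. Because the wake groups did not overlap in the ratio, it cannot be fully told apart from MI in those hearts. The part of RNA quality in the falls was not tested.

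**Figure D4:**
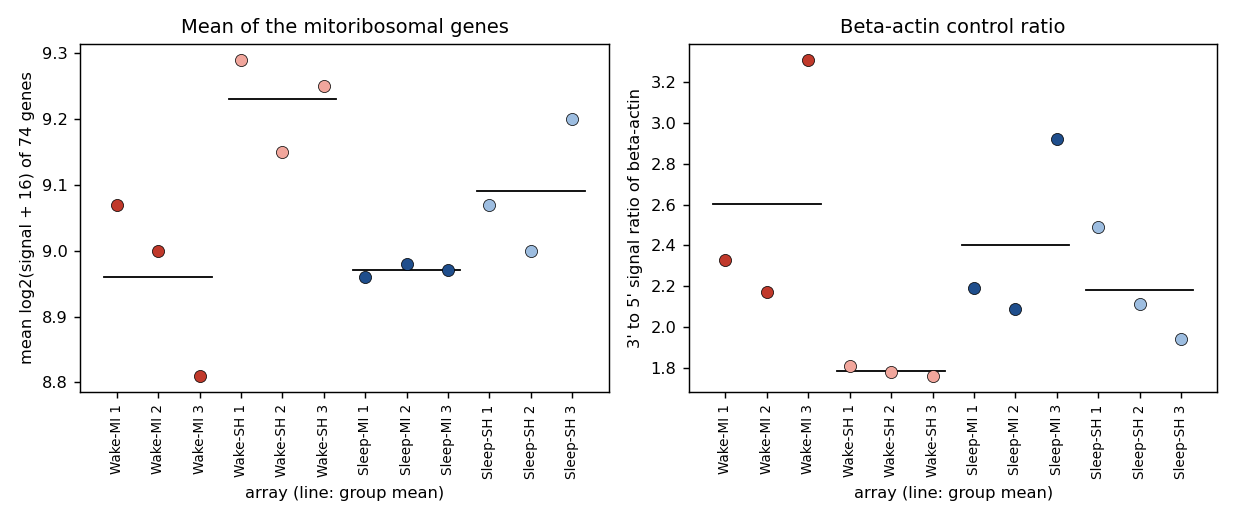
Mean log2(signal + 16) of the 74 genes in each heart (left) and 3′ to 5′ signal ratio of the beta-actin control in the same heart (right), by group and replicate, with a line at each group mean. Wake-MI replicate 3 has the lowest mean (8.81) and the highest ratio (3.31), and the Wake-SH hearts have the highest group mean and the lowest ratios. Sleep-MI replicate 3, with the next highest ratio (2.92), has a mean (8.97) between those of the other Sleep-MI hearts.

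Markers of other cell types also moved with MI. All 5 neutrophil markers tested rose over both times, among them S100a8 (1.58 ± 0.27) and Il1r2 (1.73 ± 0.24), and the 6 listed summed to 935 to 1365 in Wake-MI, against 139 to 532 in Wake-SH hearts. The sums were 1105 to 2019 in Sleep-MI, against 290 to 888 in Sleep-SH hearts. Of 5 endothelial markers 2 rose and 1, Tek, was lower at an unadjusted p below 0.05 (-0.45 ± 0.18, adjusted p = 0.0821). The endothelial sums were 1294 to 1878 in Wake-MI, against 1320 to 1361 in Wake-SH, and 1323 to 1482 in Sleep-MI, against 1123 to 1342 in Sleep-SH hearts. Of 5 fibroblast markers 2 fell (4652 to 5818 in Wake-MI, against 6292 to 8832 in Wake-SH, and 6387 to 7604 in Sleep-MI, against 6239 to 8423 in Sleep-SH hearts), and of 6 macrophage markers 0 passed over both times in limma, 3 being lower at an unadjusted p below 0.05. In wake hearts the macrophage marker Adgre1 fell (-0.84 ± 0.18, adjusted p = 0.00573). Atrial muscle markers summed to 998 to 1436 in Wake-MI, against 1715 to 14686 in Wake-SH hearts, and to 1815 to 2949 in Sleep-MI, against 1671 to 4720 in Sleep-SH hearts, and 3 of the 4 fell in wake. Their median log2 difference, MI minus sham, was -3.47 in wake and 1.41 in sleep, where 0 passed. The part of cell composition in the fall of the mitochondrial ribosomal protein genes was not tested.

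The proteins that work with the mitoribosome were read from lists of the same pathway. Only the genes of each list that were measured and tested are counted. The genes of these lists, and the regulators below, were not followed in the fits with the beta-actin covariate or with a heart left out. For comparison with each list below, 13.6% of all genes fell over both times, and their median was -0.06. Of 16 genes for its assembly and for modifying its RNA, 9 fell over both times and 0 rose, with a median of -0.29. Ngrn, needed for the stability of the large ribosomal RNA, fell by 0.60 on the log2 scale (adjusted p = 0.000474). Tfb1m, which methylates the small ribosomal RNA, gave -0.41 ± 0.08 (adjusted p = 0.00365), and Mterf4, a partner of an RNA methyltransferase in assembly of the large subunit, -0.40 ± 0.09 (adjusted p = 0.00631). In wake hearts alone 5 of the 16 fell, where 10.7% of all genes fell.

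Of 10 genes for mitochondrial DNA and its transcription 5 fell and 0 rose, with a median of -0.25. Tfam, which packages mitochondrial DNA and starts its transcription, read 183, 195 and 167 in Wake-MI hearts, against 280, 293 and 277 in Wake-SH hearts. Its sleep signals were 212, 187 and 174 in Sleep-MI hearts, against 214, 251 and 232 in Sleep-SH hearts. Every MI heart was below the sham hearts of its time (-0.43 ± 0.08 over both times, adjusted p = 0.00152). Mterf2, a DNA-binding protein of the organelle, gave -0.46 ± 0.09 (adjusted p = 0.0033) and was the member of this list that fell in sleep (-0.66 ± 0.13, adjusted p = 0.0166). Ssbp1, which coats single-stranded mitochondrial DNA, gave -0.35 ± 0.07 (adjusted p = 0.0044). Polrmt, the mitochondrial RNA polymerase, did not pass (0.06 ± 0.10).

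Among genes that process mitochondrial RNA 5 of 14 fell, with a median of -0.14, led by Ptcd2 (-0.42 ± 0.07, adjusted p = 0.00107), and Lrpprc, which stabilises mitochondrial messenger RNAs, did not pass (-0.11 ± 0.07). Of 25 genes for protein import 5 fell, with a median of -0.11, led by Pam16 of the import motor (-0.33 ± 0.06, adjusted p = 0.00267). Of 11 mitochondrial aminoacyl-tRNA synthetases measured (20 listed) 1 fell, Hars2 (-0.31 ± 0.07, adjusted p = 0.00914), with a median of -0.03. Of the 7 translation factors measured (13 listed) 0 passed in limma, Tufm (the elongation factor that brings in tRNA, -0.12 ± 0.08) among them. In limma 3 of these factors were lower at an unadjusted p below 0.05, and their median was -0.20. Of 4 other mitoribosome proteins measured (7 listed) 0 passed, Dap3 of the small subunit (-0.06 ± 0.06) among them. Here 1 was lower at an unadjusted p below 0.05, and the median was -0.09.

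Few genes passed in the lists of respiratory chain subunits and of the cytosolic ribosome. Of 75 nuclear genes for oxidative phosphorylation subunits 1 fell, Cox8a (-0.22 ± 0.07, adjusted p = 0.0276), and the median was 0.03. Of 45 cytosolic ribosomal protein genes 1 fell, Rps9 (-0.26 ± 0.06, adjusted p = 0.00915), and the median was -0.04. Both lists are brighter than the mitochondrial ribosomal protein genes, whose mean signals had a median of 549. Over all arrays the 75 oxidative phosphorylation genes summed to 345011 to 442356, and the 46 cytosolic ribosomal genes measured to 140238 to 178869. Differences between the lists, and the part of signal level in them, were not tested.

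**Figure D5:**
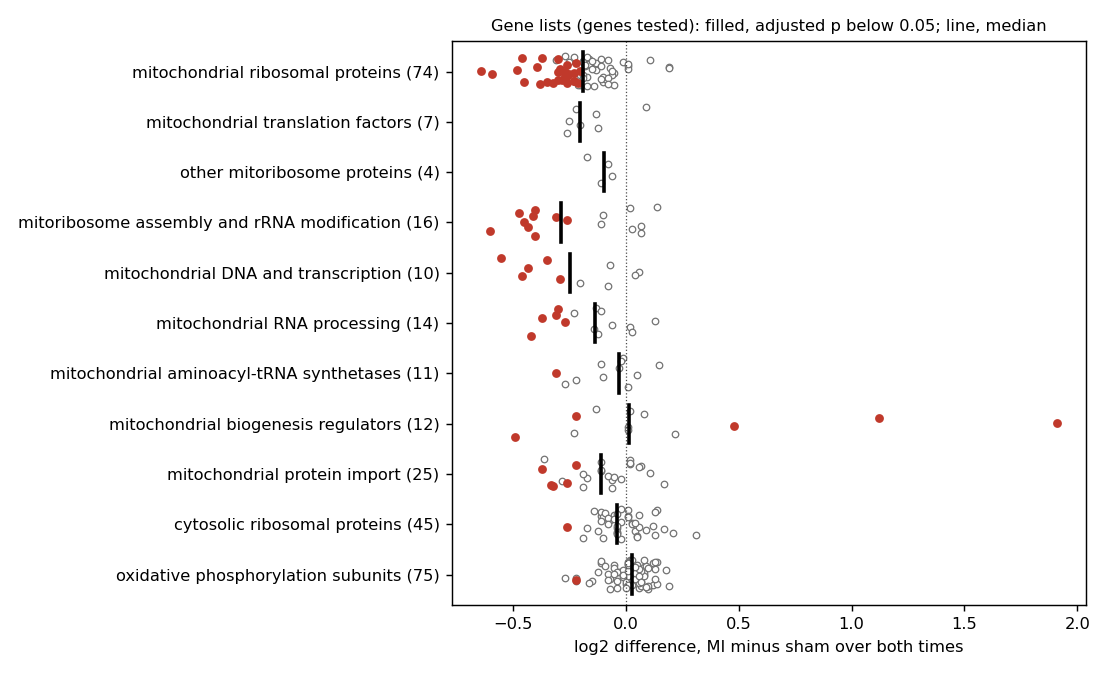
Log2 difference, MI minus sham over both times, of each tested gene in the mitochondrial ribosomal protein set and in 10 other lists (number of genes in brackets), with filled points for genes past the threshold and a line at each median. The medians of the mitochondrial ribosomal proteins (-0.19), of assembly factors (-0.29) and of mitochondrial DNA and transcription (-0.25) lie left of 0, while those of oxidative phosphorylation (0.03) and cytosolic ribosomal proteins (-0.04) lie close to it.

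Known regulators of mitochondrial genes moved in both directions. Ppargc1a, the coactivator PGC-1alpha, read 1542, 983 and 1241 in Wake-MI hearts, against 532, 622 and 464 in Wake-SH hearts. In sleep it read 1143, 956 and 1458 in Sleep-MI hearts, against 540, 567 and 551 in Sleep-SH hearts, so MI hearts were above all sham hearts at both times (1.12 ± 0.12, adjusted p = 4.01e-05). Myc, a transcription factor of cell growth that is also known to act on nuclear genes for mitochondria, rose by 1.91 ± 0.21 (adjusted p = 4.3e-05), and Pprc1, a relative of PGC-1alpha, by 0.48 ± 0.11 (adjusted p = 0.00976). Ppargc1b, the other relative, fell (-0.49 ± 0.16, adjusted p = 0.0379).

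Gabpa, the DNA-binding subunit of the factor whose core letters were searched, read 124, 124 and 127 in Wake-MI hearts, against 136, 160 and 162 in Wake-SH hearts. It read 141, 130 and 154 in Sleep-MI hearts, against 166, 161 and 163 in Sleep-SH hearts, and fell over both times (-0.22 ± 0.07, adjusted p = 0.0428). Nrf1 (0.02 ± 0.10), with signals of 24 to 35 in MI hearts and 25 to 39.3 in SH hearts, and Esrra, the estrogen-related receptor alpha (-0.13 ± 0.08), did not pass. Of the 12 regulators tested 3 rose and 2 fell over both times, with a median of 0.02.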

How the data were processed

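Heart RNA of 12 mice was hybridised to 12 single-colour Affymetrix arrays, per the labels' protocols. The deposited values are an intensity (signal) per probe set on a linear scale, made with MAS5 per the submitters' processing notes. Neither its version, settings and detection calls nor a scan batch is given in the sources used here. Of 22690 probe sets, 64 controls were left out, and the 20380 with a single symbol were named, from the array's annotation table. All 74 member symbols were the same in RefSeq (GRCm38.p6).

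Each gene took its brightest probe set by mean log2(signal + 16), and 8101 genes with that mean at or above a signal of 16.8 (the 40th percentile of the probe sets) were tested with limma 3.58.1 in R 4.3.3. The fit had 1 mean per group over 12 arrays, moderated variances with an intensity trend, and 8 residual degrees of freedom (14.0 with the prior). Tests were two-sided, with Benjamini-Hochberg adjustment over all 8101 genes within each of 6 comparisons and a threshold of 0.05. Fold changes are on the log2(signal + 16) scale, which understates changes of low signals. An exact permutation test of 3 against 3 cannot go below 0.1, which is why limma was the test of each gene. The number of arrays limits the precision. The test was also tried on simulated arrays with noise drawn independently for each gene. For Wake-MI against Wake-SH it recovered 88 of 100 changes of 1.0 on the log2 scale and 35 of 100 changes of 0.5. Genes without a change gave 8 false calls. Only 100 genes of each size were changed among the 8101, while 18.5% of all genes passed in the real wake comparison. The adjustment depends on how many genes change, so the recovered shares need not hold for these hearts.

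The members, gene lists, motifs and tests were chosen with earlier results of these data known. Signals of each heart are given for the called members with the 4 largest rises and falls in each comparison (where fewer than 3 passed, the 3 with the smallest p), for a panel of 8 members, and for members described beside them. From each other list at most 3 called genes per direction and a panel of 9 are named. The signals of Mrpl40 were added after its values were seen. Alternatives changed the pseudocount, level filter, normalization, probe set rule, variance model, threshold, replicate block, beta-actin covariate and the arrays used. Tables and figures used Python 3.11.15, pandas 2.3.3, numpy 2.4.6 and matplotlib 3.10.9.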

Additional observations from a re-analysis of the deposited data

Results flagged for a closer look

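Mrps18a was singled out because its MI and sham hearts lay in opposite order at the 2 times: every Wake-MI heart was below every Wake-SH heart, while every Sleep-MI heart was above every Sleep-SH heart. The difference of the MI effect, wake minus sleep, was -0.49 on the log2 scale (SE 0.14), and it did not pass the test after adjustment over all genes (adjusted p = 0.237). The wake difference passed (-0.36, adjusted p = 0.0215), though not without Wake-MI replicate 3 (-0.26, adjusted p = 0.0657) or with the beta-actin covariate (-0.24, adjusted p = 0.307), and the sleep difference did not pass (0.13, adjusted p = 0.535). The sleep groups were barely apart, with a lowest Sleep-MI signal of 969 and a highest Sleep-SH signal of 968. No other of the 74 genes had this arrangement, and its share over all genes was not counted.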

How the results depend on the processing

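The direction of the 28 members called over both times and of the 23 called in wake hearts did not change under any of 23 and 24 settings tried. Apart from the beta-actin covariate and left-out hearts, 17 of the 28 and 8 of the 23 kept their call in every setting. How many of all called genes kept theirs was not counted. Over both times 2 members passed with the beta-actin ratio covariate and 11 to 34 when 1 heart was left out. Of all genes 8.3% passed with the covariate and 16.2% to 22.2% with 1 heart left out. In wake hearts 1 passed with that covariate, 10 when only the groups compared were fitted, 36 at an adjusted p below 0.1 and 5 to 25 when 1 heart was left out. The shares of all genes passing in wake were 3.38%, 13.4%, 26.6% and 10.4% to 18.7% in the same order. The single call in sleep, Mrpl49, became 0 with log2(signal + 64), without a level filter, with quantile normalization, with the mean of probe sets, without the intensity trend, with only the groups compared, with the replicate block and with the covariate, and 0 to 1 when 1 heart was left out. Leaving out 1 heart gave 0 in every case for Wake-MI against Sleep-MI hearts and for the difference of the MI effect, and 0 to 1 for the sham hearts. Median centring left 20 members lower over both times, and 18 lower and 1 higher in wake. With it 20.5% of all genes passed over both times and 17.1% in wake. The replicate number was also fitted as a block, with 23 members over both times and 22 in wake hearts passing. With the block 20.8% and 17.5% of all genes passed in these 2 comparisons. Deviations of same-numbered hearts correlated at -0.18 to 0.25 over 18 pairs, 5 of them over 0.1, so the numbers were not taken as pairing the hearts. With 3 hearts per group, members with differences of the size of the called ones and smaller may have been missed. Mean signals of the members, 112 and above, all exceeded the level filter of 16.8. The causes of these changes were not tested.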
